A study of Homo sapiens with 6 samples.

Results

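ATP-binding cassette (ABC) transporter genes were described in 6 lung adenocarcinoma cell lines, as the rows whose gene symbol reads ABC, a subfamily letter from A to G and a number. There were 43 such genes among the 17160 genes listed in the deposited tables, of which 7 are drug efflux members (ABCB1, ABCC1, ABCC2, ABCC3, ABCC4, ABCC5 and ABCG2) and 36 are not. Subfamily A had 11 members, B 9, C 11, D 3, E 1, F 3 and G 5. The study sequenced total RNA from lines that had become resistant to EGFR tyrosine kinase inhibitors, drugs that block the kinase of the epidermal growth factor receptor, and from the lines they were derived from, to look for signalling pathways behind the resistance. The resistant lines were PC-9GR and PC-9ER, derived from PC-9, and HCC827GR and HCC827ER, derived from HCC827. PC-9 and HCC827 are the parental lines, both lung adenocarcinoma lines that carry activating EGFR mutations. What GR and ER stand for is not spelled out in the labels, and the sample labelled HCC82GR was read as HCC827GR. All lines grew in RPMI-1640 medium with serum, no drug is named in the growth protocol, and nothing in the labels says whether a resistant line is 1 clone.

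Each line had 1 library, so no value below has a replicate, and a p-value does not speak for repeat cultures. Levels are in CPM, counts per 1000000 of the library's total over the 16000 genes listed for all 6 libraries; total counts over these genes ranged from 14529332 in HCC827 to 17832867 in PC-9GR. Where no read was counted, a true level of 3 counts remains possible, which is 0.168 CPM in PC-9GR and 0.207 CPM in HCC827. PC-9ER and HCC827ER stood in a separate table from the other 4 libraries, so a difference between tables and a difference between an ER line and its parent cannot be told apart. Across genes, PC-9GR resembled PC-9 (Spearman rho 0.825 over 16000 genes) less closely than PC-9ER did (0.970). PC-9GR stood at 0.842 with PC-9ER, 0.848 with HCC827ER, 0.861 with HCC827 and 0.868 with HCC827GR. Its parent PC-9 was thus the library that PC-9GR resembled least, and the cause was not tested. Fitted changes of members in resistant against parental lines are therefore also given without PC-9GR. Fits of genes outside the family, and counts over their lists, are given with all 6 libraries only and may rest on PC-9GR. Ribosomal protein genes took 15.0% of the counts in HCC827ER, against 7.85% in HCC827 and at most 7.11% in the other libraries. With it the median log2 ratio of all genes in HCC827ER against HCC827 was -0.35 on library totals, and -0.0011 after TMM scaling, which moves every log2 ratio of that pair up by about the same amount. Keratin mRNAs KRT7, KRT8 and KRT18 were at 856 to 5359 CPM in every library, and the leukocyte marker CD3E at 0.069 CPM or less. Other epithelial markers were not level across the lines. EPCAM was at 1.91 CPM in PC-9GR and 405.5 CPM in PC-9ER, against 383.5 CPM in PC-9, and at 28.98 CPM in HCC827GR and 107 CPM in HCC827ER, against 460.3 CPM in HCC827. KRT19 was at 13.1 CPM in PC-9GR, against 1939 CPM in PC-9, and CDH1 at 56.1 CPM in PC-9GR, against 322 CPM in PC-9. The adenocarcinoma markers NKX2-1 and SFTPB were sparse. NKX2-1 was at 0, 1.16 and 0.769 CPM in PC-9GR, PC-9ER and PC-9, and at 2.74, 0 and 15.2 CPM in HCC827GR, HCC827ER and HCC827. SFTPB was at 2.96 CPM in PC-9 and at most 0.232 CPM in each other library. The 10 adenocarcinoma markers summed to 8340 CPM in PC-9GR and 6393 CPM in PC-9ER, against 9852 CPM in PC-9, and to 5649 CPM in HCC827GR and 7576 CPM in HCC827ER, against 17072 CPM in HCC827. The 4 mesenchymal genes summed to 1730.0 CPM in PC-9GR and 949 CPM in PC-9ER, against 559.8 CPM in PC-9, and to 1014 CPM in HCC827GR and 875 CPM in HCC827ER, against 251 CPM in HCC827. The 4 endothelial markers summed to 0.112 CPM in PC-9GR and 55.7 CPM in PC-9ER, against 220.0 CPM in PC-9, nearly all from CDH5 and PECAM1, and to at most 0.895 CPM in the lines of HCC827. Fibroblast markers summed to 2.60 to 41.1 CPM, nearly all COL1A1, and the 5 listed leukocyte markers to 22.3 to 127 CPM, nearly all CD68. The part of these marker levels in the results below was not tested.

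ABC transporters are membrane proteins that use ATP bound at paired nucleotide-binding domains to move lipids, metabolites, peptides or drugs across a membrane. The drug efflux members sit in the plasma membrane and pump amphipathic drugs or their glutathione, glucuronide and sulfate conjugates out of the cell; ABCB1 (P-glycoprotein) and ABCG2 (BCRP) are known to bind EGFR tyrosine kinase inhibitors as substrates or, at higher concentration, inhibitors. Subfamily A moves lipids, subfamily D serves peroxisomes and lysosomes, several B members serve mitochondria, and the E and F proteins lack membrane-spanning domains and act in translation.

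No drug efflux member was higher in all 4 resistant lines by a size of 2-fold. ABCB1 was higher in both lines derived from HCC827 and had no count in PC-9 or its derivatives, ABCG2 was lower in both lines derived from HCC827 and higher in PC-9GR, and ABCC2, ABCC4 and ABCC5 were far from the parental level in PC-9GR, with ABCC2 and ABCC4 on opposite sides of it in PC-9GR and PC-9ER. Outside drug efflux, ABCA3, which loads surfactant phospholipid into lamellar bodies, and ABCC6, which is needed for release of ATP from liver cells, were higher than 2-fold in 3 of the 4 resistant lines, and ABCA1, the cholesterol exporter, was lower than 2-fold in 3 of 4. None of these differences passed edgeR's test over all genes; DESeq2 called ABCA3 within HCC827.

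ABCB1 had 1276 counts in HCC827GR, 818 in HCC827ER and 232 in HCC827, or 85.2, 47.3 and 15.97 CPM, and 0 counts in PC-9GR, PC-9ER and PC-9. Both lines derived from HCC827 stood above it, and the gene was counted in every line of HCC827 and in no line of PC-9. The ratio to HCC827 was 5.34 in HCC827GR (95% interval 4.64 to 6.16, exact, counting error only) and 2.96 in HCC827ER (2.56 to 3.44). Both intervals lie above 2. In bulk RNA, fewer cells with a transcript and less of it per cell cannot be told apart.

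**Figure D1:**
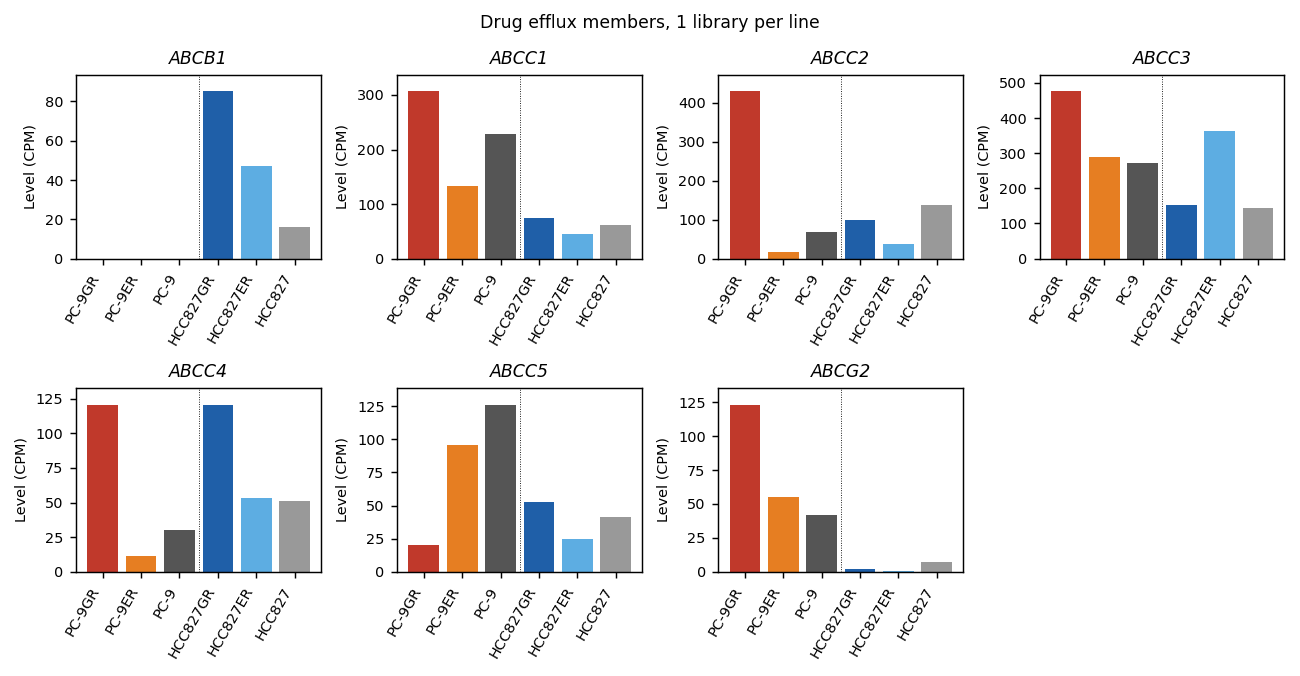
CPM of the 7 drug efflux genes in each library, 1 bar per library, with the lines of PC-9 left and the lines of HCC827 right of the dotted line and each derived line left of its parent; axes start at 0 and differ between genes. ABCB1 is at 85.2 and 47.3 CPM in HCC827GR and HCC827ER, against 15.97 CPM in HCC827, and at 0 in the lines of PC-9, whereas ABCG2 is at 123 CPM in PC-9GR and at most 7.23 CPM in any line of HCC827.

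ABCG2 showed the opposite split between the lines of origin. It was at 123 CPM in PC-9GR and 55.0 CPM in PC-9ER, against 41.9 CPM in PC-9, and at 2.20 CPM in HCC827GR and 0.405 CPM in HCC827ER, against 7.23 CPM in HCC827. Both PC-9 derivatives were thus above their parent, PC-9ER by less than 2-fold, and both HCC827 derivatives were below theirs. The log2 ratios, with a prior count of 2, were 1.55, 0.39, -1.65 and -3.79 for PC-9GR, PC-9ER, HCC827GR and HCC827ER. The HCC827ER value rests on 7 counts, against 105 in HCC827.

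ABCC1 (MRP1), an exporter of glutathione conjugates and anthracyclines, kept within 2-fold of the parental level in each pair. It was at 307 CPM in PC-9GR and 133 CPM in PC-9ER, against 228 CPM in PC-9, and at 74.6 CPM in HCC827GR and 45.2 CPM in HCC827ER, against 61.1 CPM in HCC827. On library totals, both GR lines were above and both ER lines below their parents. In HCC827ER the log2 ratio of ABCC1 was -0.43, where the median of all genes was -0.35, so it stood little below other genes.

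ABCC2 (MRP2), an apical exporter of glucuronide conjugates, was at 429.6 CPM in PC-9GR and 15.9 CPM in PC-9ER, against 68.4 CPM in PC-9. It was at 100.1 CPM in HCC827GR and 38.7 CPM in HCC827ER, against 139 CPM in HCC827. PC-9GR was 6.28-fold above its parent (5.91 to 6.69), while the log2 ratios of PC-9ER, HCC827GR and HCC827ER were -2.09, -0.47 and -1.84. In both lines of origin the ER library held the lowest level.

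ABCC3 (MRP3), a basolateral exporter of glucuronides and bile salts, was above the parental level in all 4 pairs, by 2-fold only in HCC827ER. It was at 476 CPM in PC-9GR and 289 CPM in PC-9ER, against 272 CPM in PC-9, and at 151 CPM in HCC827GR and 363 CPM in HCC827ER, against 143 CPM in HCC827. The log2 ratios were 0.81, 0.09, 0.08 and 1.34 in this order. On library totals, 9.78% of all genes had a ratio above 0 in all 4 pairs, and among the 31 ABC genes with at least 1 CPM these were ABCB6, ABCC3 and ABCC6.

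ABCC4 (MRP4), an exporter of cyclic nucleotides and prostaglandins, was higher in both GR lines. It was at 121 CPM in PC-9GR and 11.4 CPM in PC-9ER, against 29.9 CPM in PC-9, and at 121 CPM in HCC827GR and 53.6 CPM in HCC827ER, against 51.4 CPM in HCC827. The log2 ratios of 2.01 and 1.23 in PC-9GR and HCC827GR stood against -1.38 and 0.06 in PC-9ER and HCC827ER.

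ABCC5 (MRP5), also a cyclic nucleotide exporter, was at 19.96 CPM in PC-9GR and 95.3 CPM in PC-9ER, against 126 CPM in PC-9. It was at 52.7 CPM in HCC827GR and 24.6 CPM in HCC827ER, against 41.0 CPM in HCC827. PC-9GR held 0.158 of the parental level (0.141 to 0.177), and the other 3 log2 ratios lay between -0.74 and 0.36.

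Levels of the drug efflux genes were compared with each other per kilobase of the longest coding transcript in GENCODE 29. On this scale ABCC3 was the highest of the 7 in each of the 6 libraries, at 83.3, 50.6 and 47.6 CPM per kb in PC-9GR, PC-9ER and PC-9, and at 26.5, 63.5 and 25.1 CPM per kb in HCC827GR, HCC827ER and HCC827. In HCC827 it was followed by ABCC2 at 23.9 CPM per kb, with ABCB1 sixth at 3.34 CPM per kb. ABCB1 was the third at 17.8 CPM per kb in HCC827GR and the second at 9.90 CPM per kb in HCC827ER. ABCG2 was the lowest in all 3 lines of HCC827, and ABCB1, at 0, in all 3 lines of PC-9. Without repeat libraries, no error can be put on neighbours in this order. The summed level of the 7 genes, not scaled by length, was 1476 CPM in PC-9GR and 600.2 CPM in PC-9ER, against 767 CPM in PC-9, and 587 CPM in HCC827GR and 573 CPM in HCC827ER, against 459 CPM in HCC827.

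ABCA3 had the largest ratio of the family in both lines derived from HCC827. It was at 58.8 CPM in PC-9GR and 4.81 CPM in PC-9ER, against 6.27 CPM in PC-9, and at 116 CPM in HCC827GR and 115 CPM in HCC827ER, against 3.44 CPM in HCC827. PC-9ER alone stayed near its parent, and the other 3 resistant lines were well above theirs. The ratio was 9.37 in PC-9GR (7.67 to 11.6), 33.6 in HCC827GR (25.4 to 45.5) and 33.5 in HCC827ER (25.3 to 45.3). NAPSA, an aspartic protease of alveolar type II cells, was at 3.07 CPM in HCC827GR and 12.5 CPM in HCC827ER, against 28.6 CPM in HCC827, and at 0.505 CPM in PC-9GR and 0.116 CPM in PC-9ER, against 0.118 CPM in PC-9.

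ABCC6 was at 6.11 CPM in PC-9GR and 0.406 CPM in PC-9ER, against 0.178 CPM in PC-9, and at 24.6 CPM in HCC827GR and 18.6 CPM in HCC827ER, against 3.72 CPM in HCC827. All 4 resistant lines were above their parents, PC-9ER only on 7 counts against 3. The ratio was 34.4 in PC-9GR, with an interval of 11.5 to 169.5 that reflects the 3 parental counts, 6.61 in HCC827GR and 4.99 in HCC827ER. ABCC6 has near-identical partial copies in the genome, and how the counter shared reads with them was not given in the sources used here, so its counts are uncertain.

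ABCA1, which hands cholesterol and phospholipid to apolipoprotein A-I, was below the parental level in all 4 pairs. It was at 31.6 CPM in PC-9GR and 12.6 CPM in PC-9ER, against 41.3 CPM in PC-9, and at 24.2 CPM in HCC827GR and 19.4 CPM in HCC827ER, against 51.0 CPM in HCC827. The log2 ratios were -0.39, -1.70, -1.07 and -1.39. Of all genes, 12.3% were below the parental level in all 4 pairs, and 3.72% by 2-fold in at least 3. ABCG1, which moves cholesterol to HDL, was at 7.07 CPM in PC-9GR and 1.57 CPM in PC-9ER, against 11.3 CPM in PC-9, and had no count in the lines of HCC827. ABCA2, a lysosomal lipid transporter, was near its parental level in the lines of PC-9 (53.0 CPM in PC-9GR and 59.9 CPM in PC-9ER, against 64.2 CPM in PC-9) and higher in those of HCC827 (102 CPM in HCC827GR and 128 CPM in HCC827ER, against 41.1 CPM in HCC827).

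ABCA12, the lipid transporter of keratinocyte lamellar granules, was above its parental level in PC-9GR and far below it in both lines derived from HCC827. It was at 3.48 CPM in PC-9GR and 0.406 CPM in PC-9ER, against 0.118 CPM in PC-9, and at 0.601 CPM in HCC827GR and 1.68 CPM in HCC827ER, against 32.1 CPM in HCC827. Only HCC827 stood above 4 CPM. HCC827GR held 0.0187 of the parental level (0.00850 to 0.0358) and HCC827ER 0.0522 (0.0346 to 0.0760). In PC-9 the ratios rest on 2 parental counts, and the interval was 7.80 to 248 for PC-9GR and 0.653 to 33.8, which includes no difference, for PC-9ER.

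**Figure D2:**
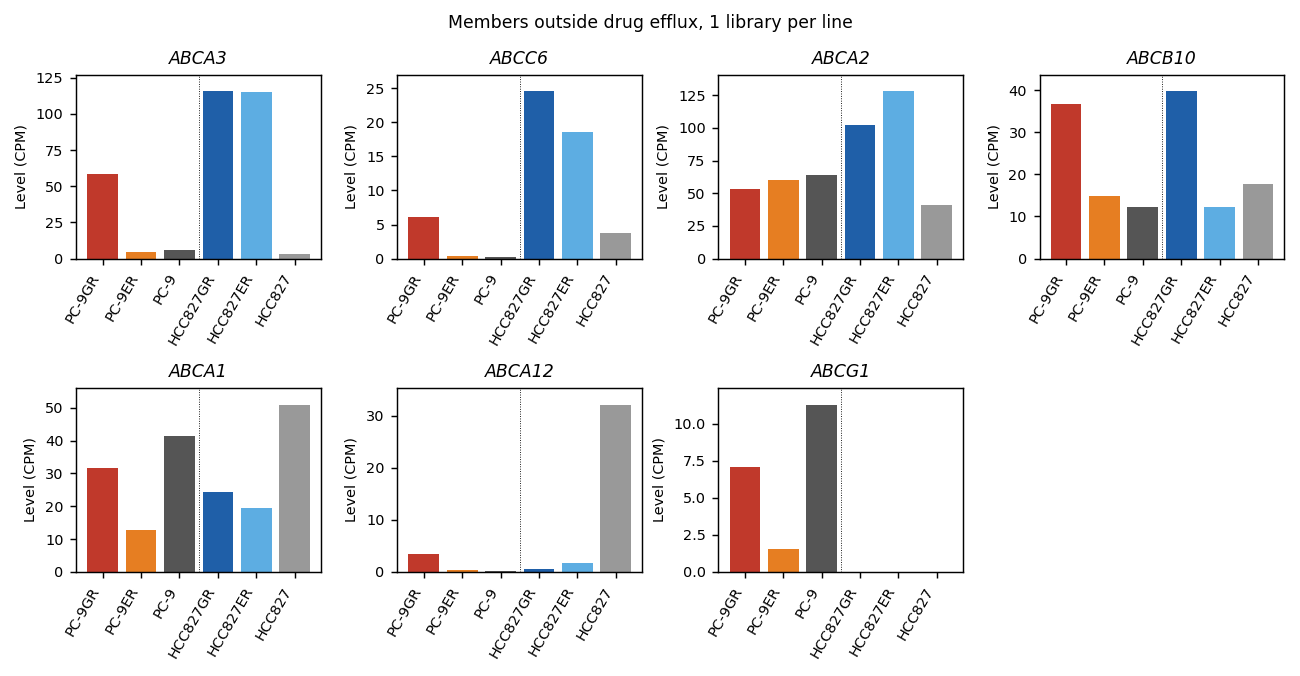
CPM of 7 members outside drug efflux in each library, 1 bar per library, with the lines of PC-9 left and the lines of HCC827 right of the dotted line and each derived line left of its parent; axes start at 0 and differ between genes. ABCA3 is at 116 and 115 CPM in HCC827GR and HCC827ER, against 3.44 CPM in HCC827, and ABCA12 is at 0.601 and 1.68 CPM in the same lines, against 32.1 CPM in HCC827.

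Among the mitochondrial members, ABCB10, an inner membrane transporter needed for heme synthesis, was higher in both GR lines. It was at 36.6 CPM in PC-9GR and 14.8 CPM in PC-9ER, against 12.2 CPM in PC-9, and at 39.7 CPM in HCC827GR and 12.2 CPM in HCC827ER, against 17.6 CPM in HCC827. ABCB6, a porphyrin transporter, was past 2-fold in PC-9GR alone, at 61.7 CPM against 21.7 CPM in PC-9. ABCB8 kept within 2-fold in all 4 pairs, with log2 ratios between -0.68 and 0.19.

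ABCD3, which imports branched-chain fatty acyl-CoA into peroxisomes, was past 2-fold in HCC827ER alone (40.1 CPM against 98.1 CPM in HCC827), and not after TMM scaling.

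The 4 translation proteins were present in every library. ABCE1, which splits ribosomes after termination, was at 60.4 CPM in HCC827ER against 157 CPM in HCC827, with a log2 ratio of -1.37, and within 2-fold in the other pairs. ABCF1, ABCF2 and ABCF3 had log2 ratios between -1.01 and 0.33, and ABCF1 passed -1 in PC-9GR only, at 79.5 CPM against 159.6 CPM in PC-9, and did not pass it after TMM scaling. ABCF2 shares reads with a listed readthrough transcript, so its level is uncertain.

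The potassium channel subunit ABCC9 (SUR2) was at 55.3 CPM in HCC827GR and 11.4 CPM in HCC827ER, against 37.2 CPM in HCC827, and at 5.32 CPM in PC-9GR and 6.58 CPM in PC-9ER, against 6.42 CPM in PC-9. ABCC8 (SUR1) had 40 counts in PC-9GR and no count in the other 3 libraries that list it, which puts PC-9GR at least 12.6-fold above PC-9, taking the floor of 3 counts for PC-9. ABCA4, the retinal lipid flippase, was low throughout, with a highest level of 5.68 CPM in PC-9ER, against 1.95 CPM in PC-9. The 11 members below 1 CPM in every library that lists them were ABCA8, ABCA9, ABCA13, ABCB4, ABCB5, ABCB11, ABCC11, ABCC12, ABCG4, ABCG5 and ABCG8, among them the bile transporters of hepatocytes. Of the 43 members, 38 were listed for all 6 libraries, ABCA8, ABCB5, ABCC8 and ABCG4 for the 4 GR and parental libraries only, and ABCG5 for the ER libraries only.

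Counted over single pairs, which were not tested as such, the share of members past 2-fold was near that of all genes in PC-9GR. It was furthest above that of all genes in HCC827GR. In PC-9ER it was above it on few members, and in HCC827ER on library totals, with fewer members past 2-fold after TMM scaling. A gene was counted when its log2 ratio was at least 1 either way and 1 of the libraries had at least 1 CPM. In PC-9GR against PC-9, 9 members were higher and 5 lower of 31, or 45.2%, beside 42.4% of all genes (21.7% higher and 20.7% lower). In PC-9ER against PC-9, 1 was higher and 5 lower of 28, or 21.4%, beside 13.1% of all genes (5.49% higher and 7.61% lower). In HCC827GR against HCC827, 7 were higher and 4 lower of 29, or 37.9%, beside 16.9% of all genes (8.18% higher and 8.76% lower). In HCC827ER against HCC827, 5 were higher and 9 lower of 29, or 48.3%, beside 39.6% of all genes (11.3% higher and 28.3% lower). After TMM scaling the members' split was 5 higher and 7 lower, and that of all genes 2278 higher and 2384 lower in place of 1421 and 3568.

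The drug efflux members gave 3 higher and 1 lower of 6 in PC-9GR, 0 and 2 of 6 in PC-9ER, 2 and 1 of 7 in HCC827GR, and 2 and 2 of 7 in HCC827ER. The rest of the family gave 6 higher and 4 lower of 25, 1 and 3 of 22, 5 and 3 of 22, and 3 and 7 of 22 in the same order. The median log2 ratio of the drug efflux members was 1.18 in PC-9GR, beside -0.01 for all genes, and -0.59, 0.29 and -0.43 in PC-9ER, HCC827GR and HCC827ER, beside 0.03, 0.06 and -0.35.

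Joining the pairs, no member was 2-fold higher or 2-fold lower in all 4, where 0.305% and 0.791% of all genes were. ABCA3 and ABCC6 were higher in 3 of 4, 2 of the 31 members counted, beside 2.26% of all genes. Within HCC827, of the 31 members ABCA2, ABCA3, ABCB1 and ABCC6 were higher in both pairs, beside 3.43% of all genes. ABCA1, ABCA12 and ABCG2 were lower in both, beside 5.15%. These joint shares are on library totals, on which all genes leaned lower in HCC827ER (1421 higher and 3568 lower). Within PC-9, no member was past 2-fold in the same direction in both pairs, beside 2.34% of all genes higher and 3.8% lower. Both pairs of a line of origin share their parental library.

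**Figure D3:**
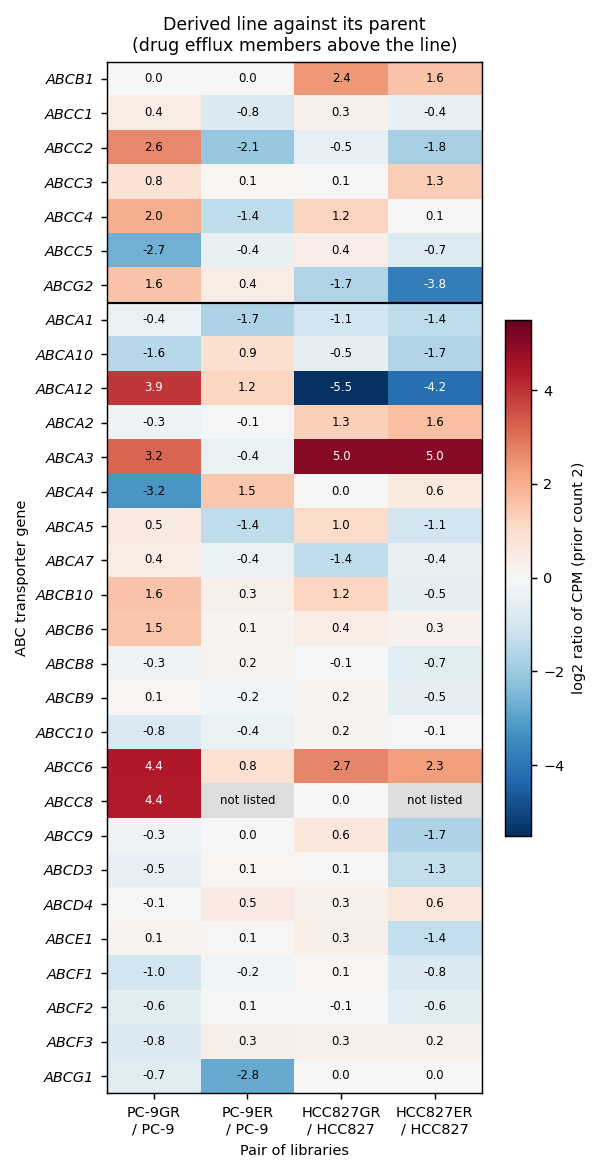
Log2 CPM ratio (prior count 2) of each derived line to its parent for members with at least 1 CPM in some library; rows are genes, with the 7 drug efflux members above the line, columns are the 4 pairs, red is higher and blue lower in the derived line, and grey cells are not listed. ABCA3 and ABCC6 are red in both columns of HCC827 and in PC-9GR, and ABCG2 and ABCA12 are red in PC-9GR and blue in both columns of HCC827.

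With all 6 libraries in 1 fit, blocked by line of origin, resistant lines were compared with parental lines over 14233 genes, 32 of them ABC transporters. The largest fitted changes were those of ABCA3 (log2 fold change 3.56 ± 1.32, SE), ABCC6 (3.28 ± 1.24) and ABCB1 (2.09 ± 0.66), and at the other end ABCA12 (-2.56 ± 2.65), ABCG1 (-1.23 ± 1.31), ABCA1 (-0.98 ± 0.46) and ABCG2 (-0.96 ± 1.06). Without PC-9GR these fitted changes were 2.60 for ABCA3, 2.22 for ABCC6, 2.11 for ABCB1, -2.98 for ABCA12, -2.68 for ABCG1, -1.36 for ABCA1 and -1.28 for ABCG2. Without PC-9ER the value of ABCG1 was -0.58. The sign of ABCG2 turned without the block (0.91), by limma-voom (0.35) and without HCC827 (1.12), and that of ABCA12 turned without HCC827 (3.99). The value of ABCB1 rests on the lines of HCC827 and that of ABCG1 on the lines of PC-9, since each is at 0 in the other line of origin. By edgeR's quasi-likelihood test with Benjamini-Hochberg adjustment, no member and no other gene passed (0.0% called), and the lowest adjusted p of a member was 0.997. At an unadjusted p under 0.05 there were 350 genes, 2.46%, among them 3 of the 32 members: ABCB1, ABCA3 and ABCC6. DESeq2 called 40 genes and limma-voom 0, no member among them.

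The other drug efflux members were fitted nearer to 0. ABCC4 (1.01 ± 0.90), ABCC3 (0.79 ± 0.58), ABCC2 (0.20 ± 1.34) and ABCC1 (0.03 ± 0.43) were fitted above 0 and ABCC5 (-0.60 ± 0.67) below it; the sign of ABCC1 flips without composition scaling. Without PC-9GR, ABCC4 was at -0.16, ABCC2 at -1.45 and ABCC1 at -0.30, while ABCC3 was at 0.64 and ABCC5 at -0.18. The median of the 7 was 0.20, that of the other tested members -0.11 and that of all tested genes 0.06. Without PC-9GR these medians were -0.18, -0.08 and 0.03, so the order of the drug efflux and other members turned, and without the block for line of origin the median of the 7 was 0.74. Of the 32 tested members, 14 were fitted above 0 and 18 below. These counts and medians describe the list and are not a test of it.

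**Figure D4:**
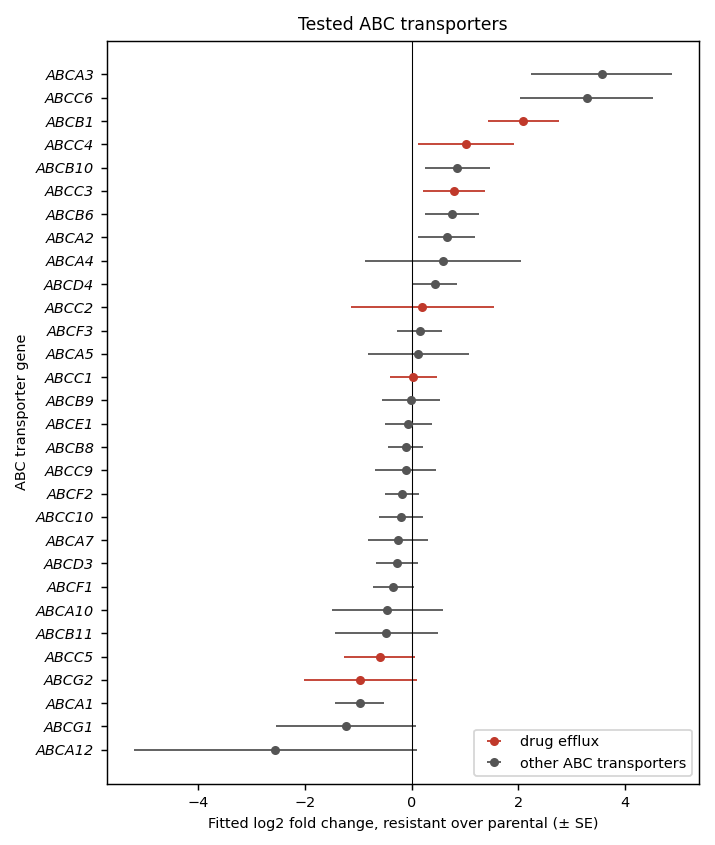
Fitted log2 fold change, resistant over parental lines, for tested members, drug efflux members in red and others in grey; bars are ± 1 SE from edgeR's quasi-likelihood fit on 6 libraries. ABCA3, ABCC6 and ABCB1 lie at 3.56, 3.28 and 2.09, and ABCA12 at -2.56 has an SE of 2.65.

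Within PC-9 the derived lines had no member at an unadjusted p under 0.05, and edgeR's quasi-likelihood test called 0 of 14233 genes (0.0%), with 132 at an unadjusted p under 0.05 (0.927%), DESeq2 107 and limma-voom 0. This fit averages PC-9GR and PC-9ER, which differ for many members: without PC-9ER, edgeR called 1223 genes, with 4 members among them, ABCA3, ABCA12 and ABCC6 higher and 1 lower, and without PC-9GR 2 genes and no member. A fit without a derived line leaves 1 derived library for that parent, whose spread is taken from the lines of the other parent.

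Within HCC827 the fitted changes were 5.23 ± 1.83 for ABCA3, 2.16 ± 0.83 for ABCB1 and 1.67 ± 0.68 for ABCA2, and -4.56 ± 1.60 for ABCA12 and -2.43 ± 0.97 for ABCG2. These 5 had an unadjusted p under 0.05, as had 193 of the 14233 genes (1.36%), and edgeR's quasi-likelihood test called none (0.0%; adjusted p 1.00 for each). DESeq2 called 42 genes, ABCA3 among them (5.25, adjusted p = 0.0357), and limma-voom 0. Leaving out PC-9GR, the fitted change was 5.22 for ABCA3 and -4.58 for ABCA12, and leaving out PC-9ER it was 5.23 and -4.56. Each of these fits has 1 residual degree of freedom, so its spread comes from HCC827GR and HCC827ER alone.

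The difference between the changes of the derived lines of HCC827 and of PC-9 was tested in the same fit. It was -8.54 ± 2.76 on the log2 scale for ABCA12 and -3.55 ± 1.45 for ABCG2, the 2 members at an unadjusted p under 0.05 beside 117 genes in all (0.822%). No gene passed edgeR's quasi-likelihood test (0.0%; adjusted p 1.00 for both members), DESeq2 called 33 genes and no member, and limma-voom 0. Without PC-9ER the difference was -9.39 for ABCA12, in a fit with 1 residual degree of freedom. For ABCB1 and ABCG1 no difference could be estimated, each having no counts in 1 line of origin.

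The genes next to ABCB1 on chromosome 7 were looked at after its values had been seen. RUNDC3B, whose annotated span overlaps that of ABCB1, had 109 counts in HCC827GR and 170 in HCC827ER, against 21 in HCC827, and like ABCB1 none in the lines of PC-9. Its log2 ratios were 2.23 and 2.66, against 2.41 and 1.56 for ABCB1. The kit marks strand, but whether counting used it was not given in the sources used here, so reads of the overlapping stretch may be shared. SLC25A40, a mitochondrial glutathione carrier, had 0.07 and -0.58, TMEM243 0.09 and -0.28, CROT, a peroxisomal carnitine acyltransferase, -0.45 and -2.12, and DBF4, the activator of the CDC7 kinase, -0.22 and -2.28. ABCB4, the hepatocyte phosphatidylcholine flippase beside ABCB1, had 4, 2 and 1 counts in HCC827GR, HCC827ER and HCC827. Of the 6 listed neighbours, RUNDC3B was the only one more than 2-fold higher in both lines.

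**Figure D5:**
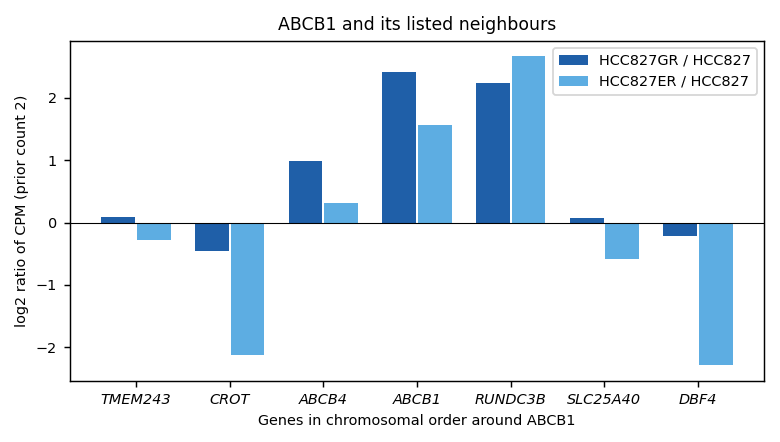
Log2 CPM ratio (prior count 2) for ABCB1 and the 3 listed genes on each side of it in chromosomal order, with HCC827GR against HCC827 in dark blue and HCC827ER against HCC827 in light blue. ABCB1 (2.41 and 1.56) and RUNDC3B (2.23 and 2.66) are above 2-fold in both pairs, and ABCB4 has at most 4 counts.

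The promoters of 4 genes that the results turn on are shown for reference, from 250 bases before to 30 bases after a RefSeq transcript start in GRCh38.p14, each read on the minus strand. These genes have other annotated starts, and which start the cells used is not known from gene counts. Only starts whose window held the marked letters were shown, and for ABCB1 only with a match shortly before the start. The matches marked here therefore follow from that choice. Capitals mark CCAAT, the letters of the CCAAT box, in ABCB1 and TGACNNNGC, the core of the antioxidant response element bound by NFE2L2 (NRF2), in the other 3, on either strand.
ABCB1 (chr7:87600855-87601134): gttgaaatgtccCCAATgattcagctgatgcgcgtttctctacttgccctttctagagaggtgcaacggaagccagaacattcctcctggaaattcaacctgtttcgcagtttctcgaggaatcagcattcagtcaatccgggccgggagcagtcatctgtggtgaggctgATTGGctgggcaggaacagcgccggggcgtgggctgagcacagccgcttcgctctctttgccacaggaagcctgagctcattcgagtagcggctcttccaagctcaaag
ABCG2 (chr4:88159261-88159540): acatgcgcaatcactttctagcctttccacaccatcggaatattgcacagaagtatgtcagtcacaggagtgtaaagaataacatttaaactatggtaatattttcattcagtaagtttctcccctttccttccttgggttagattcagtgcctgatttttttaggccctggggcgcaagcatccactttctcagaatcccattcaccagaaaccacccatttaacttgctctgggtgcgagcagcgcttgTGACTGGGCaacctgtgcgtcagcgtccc
ABCC4 (chr13:95301422-95301701): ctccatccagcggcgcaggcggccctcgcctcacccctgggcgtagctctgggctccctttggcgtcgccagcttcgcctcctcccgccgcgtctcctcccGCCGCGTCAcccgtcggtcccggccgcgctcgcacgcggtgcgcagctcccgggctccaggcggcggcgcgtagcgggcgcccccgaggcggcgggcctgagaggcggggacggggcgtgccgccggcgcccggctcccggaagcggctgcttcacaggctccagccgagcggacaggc
ABCA3 (chr16:2340699-2340978): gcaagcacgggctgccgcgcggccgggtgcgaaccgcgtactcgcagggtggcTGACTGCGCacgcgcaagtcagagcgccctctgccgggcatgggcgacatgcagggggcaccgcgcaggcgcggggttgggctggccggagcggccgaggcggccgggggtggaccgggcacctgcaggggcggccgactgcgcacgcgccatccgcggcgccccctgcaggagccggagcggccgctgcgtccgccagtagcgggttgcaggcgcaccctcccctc

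The ABCB1 window held CCAAT 2 times, starting 238 and 79 bases before the start, the nearer one on the reverse strand. RefSeq windows of 300 bases, from 250 before to 50 after a start, were matched for 33 of the 43 members, 50 windows in all. TGACNNNGC was found in 12 of these 50 (24%) and in 13.3% of all 35116 windows, and CCAAT in 9 (18.0%) and in 34.6%. GGGCGG, the GC box, was found in 24 (48.0%) and in 45.0%, and TATAAA in 7 (14.0%) and in 11.5%. Both strands were searched, windows of 1 gene can overlap, and a match in letters is a description and no evidence of binding.

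Genes that act with ABC transporters were taken from lists set by role. No gene of these lists passed edgeR's quasi-likelihood test in resistant against parental lines. Of 18 genes for glutathione synthesis and for glutathione or sulfate conjugation, which make substrates for ABCC transporters, 15 were tested. These 15 were all fitted above 0, beside 54.0% of all tested genes, some of them near 0, such as GSTK1 (0.12 ± 0.53) and GCLC (0.17 ± 0.44). The median log2 fold change of the 15 was 0.65, beside 0.06 for all genes. Within PC-9 and within HCC827, 13 of the 15 were above 0 and 2 below, beside 54.4% and 52.4% of all tested genes above 0. GCLC and GCLM, the subunits of the first enzyme of glutathione synthesis, were below the parent in HCC827ER, at 14.5 CPM against 28.98 CPM in HCC827 for GCLC and 69.7 CPM against 127 CPM for GCLM. Other genes of the list also fell below the parent in single pairs. In PC-9GR, SULT1A1 was at 4.63 CPM against 25.1 CPM in PC-9, GSTM3 at 9.70 against 28.3 CPM and GSTK1 at 89.9 against 175 CPM. In HCC827GR, GSTP1 was at 557 CPM against 680.0 CPM in HCC827 and MGST2 at 9.08 against 16.7 CPM. MGST1, a microsomal glutathione transferase, was at 753 CPM in PC-9GR and 661 CPM in PC-9ER, against 375 CPM in PC-9. In the lines of HCC827, MGST1 was at 455 CPM in HCC827GR and 830.2 CPM in HCC827ER, against 438 CPM in HCC827. GSTA1, a glutathione transferase, was at 15.6 CPM in HCC827GR and 224 CPM in HCC827ER, against 1.56 CPM in HCC827, and at 0.058 CPM or less in the lines of PC-9. Of 24 tested regulators of transporter genes, 12 were fitted above 0 and 12 below.

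Levels of regulators known to act on members are given as values, and no difference between the lines of origin passed edgeR's quasi-likelihood test. NFE2L2 was at 130.2 CPM in PC-9GR and 129 CPM in PC-9ER, against 106 CPM in PC-9, and at 102 CPM in HCC827GR and 64.9 CPM in HCC827ER, against 163 CPM in HCC827. NR1H4 (FXR), the bile acid receptor, was at 14.2 CPM in HCC827GR and 30.9 CPM in HCC827ER, against 0.275 CPM in HCC827, and PPARGC1A, a coactivator, at 25.7 CPM in HCC827GR and 15.1 CPM in HCC827ER, against 0.344 CPM in HCC827; neither exceeded 0.449 CPM in the lines of PC-9. HNF4A, a liver and gut factor, was at 52.9 CPM in PC-9GR and 0.696 CPM in PC-9ER, against 0.473 CPM in PC-9.

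The targets of the liver X receptors, sterol sensors that also drive ABCA1 and ABCG1, were fitted below 0 in 5 of 7 tested. Their median log2 fold change was -0.51, beside 0.06 for all tested genes, of which 54.0% were fitted above 0. The 2 targets fitted above 0 were LPCAT3 (0.18) and APOE (2.17), and of the 5 below it NR1H3 was at -0.02 ± 0.79. MYLIP, which degrades the LDL receptor, was below the parent in all 4 pairs as ABCA1 was. MYLIP was at 6.84 CPM in PC-9GR and 9.39 CPM in PC-9ER, against 17.9 CPM in PC-9. In the lines of HCC827, MYLIP was at 1.60 CPM in HCC827GR and 2.49 CPM in HCC827ER, against 6.19 CPM in HCC827. Not all targets followed. In PC-9GR, SREBF1 was at 307 CPM against 260 CPM in PC-9, and SCD at 5128 against 3431 CPM. Within HCC827, NR1H3 (0.92), APOE (0.84) and LPCAT3 (0.72) were fitted above 0 and the other 4 targets below. Uptake carriers were fitted above 0 in 10 of 15, beside 54.0% of all tested genes. Among the 10, SLC47A1 was at 39.4 CPM in PC-9GR and at most 0.473 CPM in each other library. PDZK1, a scaffold that binds the tails of ABCC2 and ABCC4, was at 90.4 CPM in HCC827GR and 89.2 CPM in HCC827ER, against 26.2 CPM in HCC827, and at 1.79 CPM in PC-9GR and 1.80 CPM in PC-9ER, against 1.48 CPM in PC-9. Of the ABC proteins with other symbols, TAP1, which loads peptides for MHC class I, was above the parental level in all 4 pairs, at 37.8 CPM in PC-9GR and 31.3 CPM in PC-9ER, against 20.7 CPM in PC-9, and at 43.8 CPM in HCC827GR and 57.1 CPM in HCC827ER, against 26.4 CPM in HCC827. Its fitted change was 0.94 ± 0.40, with an adjusted p of 0.997 by edgeR's quasi-likelihood test, and TAP2 had -0.14 ± 0.55. The chloride channel CFTR was at 0.534 CPM or less everywhere.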

How the data were processed

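Libraries were made from total RNA with a strand-specific Ribo-Zero TruSeq kit, which removes ribosomal RNA, per the labels' protocols. The submitters' processing notes name HISAT2 2.0.4, Cuffdiff and GRCh38.p13. The deposited values are expected counts per gene from the authors, and the counter was not given in the sources used here. Between 13.2% and 14.3% of values per library were not whole; they were rounded before testing. The 4 GR and parental libraries came in a table of 16854 genes, the 2 ER libraries in a table of 16306, and CPM used the total over the 16000 genes in both. Members and lists were chosen with earlier results of these data known. 

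Genes passing edgeR's default filter on low counts (14233 genes, 32 of 43 members) were tested in R 4.3.3 with edgeR 4.0.16. Testing used TMM scaling, the robust quasi-likelihood test and a Benjamini-Hochberg adjusted p under 0.05. Residual degrees of freedom were 3 with 1 change for both lines of origin and 2 with 1 for each. With 1 change for each, leaving out a derived line left 1. A check on simulated counts had no difference between lines of origin, so it does not show the power here. With a common dispersion of 0.449 between derived lines, a gene that did not pass may still differ. Single pairs have log2 ratios of CPM with a prior count of 2 and no test. Intervals are exact 95% intervals of a ratio of Poisson counts; reads carry no molecular identifiers, so intervals and floors cover counting error only. DESeq2 1.42.0, limma-voom (limma 3.58.1), other scalings, filters, prior counts and leaving out each library were alternatives. Members named with every value were the drug efflux members, those changed 2-fold the same way in at least 3 of 4 pairs, and the 5 highest and 5 lowest fitted changes. ABCA2, ABCA4, ABCB6, ABCC8, ABCC9, ABCD3, ABCE1, ABCF1, the neighbours of ABCB1 and the list genes given with values were chosen after their values were seen. Some members count in the totals but their own values are not reported here. Sequences are from RefSeq. ABCA6, ABCC13 and ABCD2 were not analysed here.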

Additional observations from a re-analysis of the deposited data

Results flagged for a closer look

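ABCA12 and ABCG2 were above the parental level in both lines derived from PC-9 and below it in both lines derived from HCC827. For ABCA12 in PC-9ER this rests on 7 counts, against 2 in PC-9, under 1 CPM, with a ratio interval of 0.653 to 33.8 that includes no difference. The difference between the changes, HCC827 minus PC-9, was -8.54 for ABCA12 and -3.55 for ABCG2 on the log2 scale, with an adjusted p of 1.00 for both by edgeR's quasi-likelihood test over 14233 genes.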

How the results depend on the processing

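Counts of called genes were 0 in each of the 4 comparisons by edgeR's quasi-likelihood test under RLE size factors, no composition scaling and no filter, and by limma-voom, whereas DESeq2 called 40 genes in resistant against parental lines, 107 within PC-9, 42 within HCC827 with 1 member among them, ABCA3, and 33 for the difference. Leaving out each library gave 0 genes throughout in resistant against parental lines, 0 to 1223 genes and 0 to 4 members within PC-9, 0 to 161 genes and 0 to 2 members within HCC827, and 0 to 544 genes and 0 to 1 member for the difference. In resistant against parental lines, leaving out 1 library turned the sign of ABCA12 (-4.55 to 3.99), ABCC1 (-0.30 to 0.25), ABCC2 (-1.45 to 1.75), ABCC4 (-0.16 to 1.35), ABCC5 (-1.18 to 0.0065) and ABCG2 (-2.43 to 1.12). Within PC-9, leaving out 1 library turned the sign of ABCA3 (-0.38 to 3.27), ABCC1 (-0.78 to 0.47), ABCC2 (-2.10 to 2.69) and ABCC4 (-1.39 to 2.05). Within HCC827, leaving out 1 library turned the sign of ABCB10 (-0.17 to 1.13), ABCC1 (-0.078 to 0.25) and ABCC5 (-0.38 to 0.32). For the difference between lines of origin, leaving out 1 library turned the sign of ABCA1 (-0.73 to 0.61), ABCB10 (-1.28 to 0.32), ABCC1 (-0.38 to 0.85), ABCC2 (-3.62 to 1.17), ABCC3 (-0.46 to 1.18), ABCC4 (-1.21 to 2.23) and ABCC6 (-2.41 to 1.503). Other settings also turned signs. For resistant against parental lines these were those of ABCC1 without composition scaling (-0.0413) and by limma-voom (-0.0401), ABCC2 by limma-voom (-0.35) and ABCG2 by limma-voom (0.35). Within HCC827 they were those of ABCC1 without composition scaling (-0.0290) and ABCC5 without composition scaling (-0.0867) and by limma-voom (-0.0309), and for the difference that of ABCC4 by limma-voom (0.47). Without the replicate block for line of origin, resistant against parental lines gave 0 genes, -0.000248 for ABCC1 and 0.91 for ABCG2. The causes were not tested. Omitting composition scaling moved the median of all genes to -0.07 within HCC827, against 0.04 with it, and to -0.17 for the difference, against -0.06. Counts of members past 2-fold in single pairs stayed within 1.5 times under each alternative. Leaving out a parent could not be fitted where it is the only parental library of the comparison. Within a line of origin and for the difference, leaving out a derived line left 1 residual degree of freedom. The counts of called genes in those fits rest on the spread between the derived lines of the other parent. Where no read was counted, a true level of up to 3 counts, about 0.2 CPM, remains possible.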
